A study of Homo sapiens with 56 samples.

Results

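This account covers 41 genes of the extracellular matrix and its remodelling, followed in RNA of the ovarian cancer lines PEO1 and PEO4. The members are a list of gene symbols. No measured value enters the rule, but the list was drawn up with earlier results of these data known, so counts over it describe these genes and are no independent evidence. Of the 41, 39 had a probe set annotated to their symbol alone among the 11963 genes measured. COL12A1 and LAMA3 were not analysed here. The lines were profiled on 56 Affymetrix arrays, 28 per line, and both carry the label high-grade serous ovarian cancer. Every group, 0 h included, had first been deprived of hormone for 3 days, in medium lacking phenol red whose serum was stripped with charcoal to remove steroids. In each line 7 groups of 4 arrays followed. Besides the cells at 0 h, there were cells treated for 3 h with vehicle (ethanol), with E2 (estradiol, 1 nM), with ICI (fulvestrant, 1 µM), with 4OHT (4-hydroxytamoxifen, 1 µM), and with either antagonist added to E2. E2 is the main natural estrogen, ICI a steroidal antagonist that leads to loss of estrogen receptor, and 4OHT a non-steroidal active metabolite of tamoxifen. Each line is a single established culture, and the labels do not say whether the 4 arrays of a group came from separate cultures, so the p-values measure the spread between these arrays, which may be technical.

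The extracellular matrix is a secreted network with a fibrillar and a sheet-like form. Fibrillar collagens and fibronectin make up the interstitial form, while type IV collagen, laminins, nidogens and perlecan build the basement membrane under epithelial cells. Lysyl oxidases cross-link collagen and elastin, metalloproteinases cut matrix proteins, and the tissue inhibitors of metalloproteinases, or TIMPs, block those enzymes. Ovarian carcinoma cells spread along the mesothelium-lined peritoneum, where they attach to matrix laid down by themselves and by host cells.

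The deposited values are on a log2 scale, on which a step of 1 is a doubling, and a level of one gene cannot be set against that of another because probe sets differ in brightness. Array medians were 7.40 to 7.48 in PEO1 and 7.84 to 7.91 in PEO4. After joint quantile normalization of all arrays, markers of serous carcinoma (PAX8, WT1, MUC16, MSLN and ESR1) read 10.18 to 11.86 in PEO1, against 9.52 to 12.79 in PEO4, and 6 epithelial markers lay between 11.26 and 13.93 over both lines. Endothelial markers lay between 4.14 and 7.04, and 3 leukocyte markers between 3.10 and 7.50, with PTPRC from 3.10 to 4.41, CD14 from 5.52 to 7.04 and CD3E from 6.92 to 7.50. The 6 fibroblast markers did not move as a block between the lines. FAP ranged from 7.97 to 8.64 in PEO1 and from 4.45 to 5.02 in PEO4, and THY1 from 11.50 to 12.05 and from 10.35 to 10.90. LUM went the other way (2.58 to 2.89 against 5.50 to 6.48), as did PDGFRA (5.19 to 5.69 against 5.99 to 6.59). DCN spanned 5.95 to 6.46 and 5.96 to 6.40, and PDGFRB 6.51 to 7.17 and 6.25 to 6.74. The THY1 probe set thus read bright in both lines, which allows no comparison with the level of other genes. Smooth muscle markers lay between 6.37 and 8.13, with ACTA2 at 6.68 to 7.11 in PEO1 and 7.64 to 8.13 in PEO4. The 3′ minus 5′ signal of the ACTB control, a sign of RNA degradation or short labelling where it is high, was -0.25 to 0.14 in PEO1 and 0.24 to 3.41 in PEO4, highest on ICI replicate 1 and next on 0 h replicate 4 (2.28).

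Levels of the lines were compared on vehicle arrays after all 56 arrays had been brought to 1 common distribution by quantile normalization. Line, array run and the authors' normalization cannot be told apart, so this comparison carries no test. In bulk RNA, fewer cells with a transcript and less of it per cell cannot be told apart. Matrix genes lay far apart between the lines in both directions. Of the 39 genes, 7 (17.9%) differed by at least 4-fold, against 2.39% of all 11963 genes. Of these 7, 6 were lower in PEO4, against 1.28% of all genes, and 1 was higher, against 1.11%. Of those 6, 5 (all but FN1) lay among the lowest 40 percent of genes in PEO4, a range called dim here, and the 1 higher gene, ADAMTS1, was dim in PEO1. RMA values cannot say whether a transcript is present in that range, so differences against a dim level are values of these probe sets and no measure of the true fold. At the smaller threshold, 20 (51.3%) differed by at least 2-fold, against 10.5%. The median size of the difference was 1.00 on the log2 scale for the 39 genes and 0.33 for all genes, while the signed medians were -0.057 and -0.012. All 28 arrays of one line lay above all 28 of the other for 25 of the 39 genes (64.1%), against 36.8% of all genes. Without the quantile step the median of all genes moved by 0.48 towards PEO4, and 10 of the 39 genes, with differences of at most 0.51, then changed sign (COL1A1, COL4A5, COL4A6, COL5A2, COL11A1, FBLN1, LAMB1, LAMB2, LAMB3 and NID1), so their values below carry no direction.

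**Figure D1:**
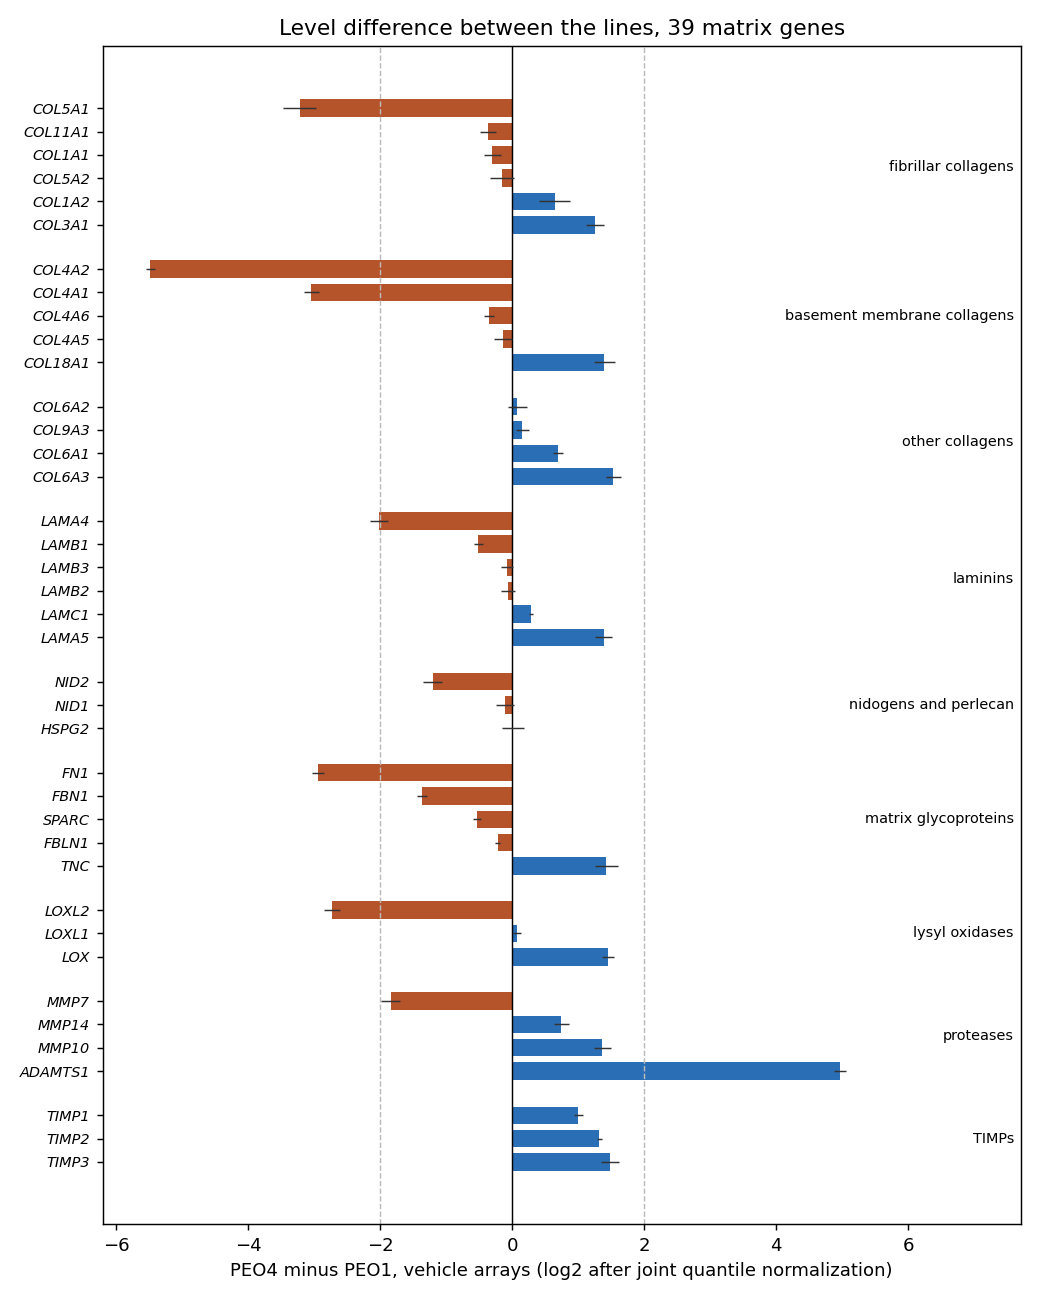
Bars give the PEO4 minus PEO1 difference of each of the 39 genes between vehicle arrays (log2, joint quantile normalization), grouped by role, with the combined SD of the 4 and 4 arrays as error bars and dashed lines at 4-fold. COL4A2 stands at -5.48 and ADAMTS1 at 4.97, and all 3 TIMPs are higher in PEO4.

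Among basement membrane collagens, both genes of the most common type IV collagen trimer were lower in PEO4. COL4A2, its alpha-2 chain, ranged over the 28 arrays from 9.50 to 9.83 (median 9.66) in PEO1 and from 3.88 to 4.29 (median 4.11) in PEO4, a difference of -5.48 between vehicle groups. COL4A1, its alpha-1 chain, had vehicle levels of 8.67 ± 0.049 (SD) in PEO1 and 5.64 ± 0.10 (SD) in PEO4, a gap of -3.04. No array of one line came near the other for either gene, and both were dim in PEO4. COL18A1, the source of endostatin, went the other way, ranging from 7.28 to 7.56 (median 7.44) in PEO1, where it was dim, and from 8.58 to 9.13 (median 8.72) in PEO4. COL4A5 and COL4A6, chains of another type IV network, differed by -0.14 and -0.35, within the range where the sign depends on the scaling.

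COL4A1 and COL4A2 lie head to head on chromosome 13 and are transcribed away from each other. Their annotated starts leave 126 bases, chr13:110307158-110307283 (GRCh38.p14, RefSeq), which are shown because a single stretch precedes both of these genes, each lower in PEO4. It is given on the plus strand, with a CCAAT box (CCAAT) and a GC box (GGGCGG) in capitals.
COL4A1-COL4A2: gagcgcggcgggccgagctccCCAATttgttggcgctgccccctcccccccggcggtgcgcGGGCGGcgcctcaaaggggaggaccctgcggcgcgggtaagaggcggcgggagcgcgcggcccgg
On either strand, CCAAT occurred in 34.6% and GGGCGG in 45% of all 35116 RefSeq promoter windows of 300 bases, and in 14 and 26 of the 37 windows of the 30 matched members, so neither is rare. Both motifs were chosen for description after the levels were known, and a match is a description of letters, not a binding site. COL4A5 and COL4A6, also head to head with 379 bases between them on the X chromosome, differed by the small amounts given above. Over the 28 arrays of a line, the level of COL4A1 followed that of COL4A2 with r = 0.41 in PEO1 and -0.059 in PEO4, a description over arrays that share treatment groups.

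Fibrillar collagens split. COL5A1, a regulatory chain that limits fibril width, ranged from 8.48 to 9.10 (median 8.74) in PEO1 and from 5.17 to 5.86 (median 5.54) in PEO4, where it was dim, a gap of -3.22. COL3A1, the type III chain, was higher in PEO4, ranging from 5.24 to 5.59 (median 5.38) in PEO1 and from 6.15 to 6.74 (median 6.46) in PEO4, although it was dim in both lines. COL1A2, the alpha-2 chain of type I collagen, differed by 0.64 with no overlap of arrays and was also dim in both lines. COL1A1, COL5A2 and COL11A1, the other fibrillar chains, differed by -0.30, -0.15 and -0.37. The neighbours COL3A1 and COL5A2, 19151 bases apart on chromosome 2, differed between the lines by 1.25 and -0.15. Of the other collagens, COL6A3, the long chain of the microfibrillar type VI collagen, was higher in PEO4 by 1.53 from a dim level in PEO1. COL6A1 was higher by 0.70 on the probe set used, but 5 of its 8 probe sets were lower in PEO4. The mean over the COL6A1 probe sets differed by 0.087. COL6A2 and COL9A3 were higher by 0.081 and 0.15 with overlapping arrays.

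Laminins are trimers of an alpha, a beta and a gamma chain. The alpha chains differed in opposite directions: LAMA4, typical of vessel walls and mesenchyme, ranged from 8.65 to 8.94 (median 8.85) in PEO1 and from 6.47 to 7.09 (median 6.85) in PEO4, where it was dim, a gap of -2.02, while LAMA5, the common epithelial alpha chain, ranged from 9.97 to 10.48 (median 10.19) in PEO1 and from 11.25 to 11.92 (median 11.49) in PEO4, a gap of 1.39. LAMC1, the gamma chain of most laminins, was higher in PEO4 by 0.29 with no overlap. The beta chains LAMB1, LAMB2 and LAMB3 overlapped between lines. NID2, a linker of laminin and collagen IV, was lower in PEO4 (a difference of -1.20, with a dim level there), while its relative NID1 and perlecan (HSPG2) differed by -0.10 and 0.012.

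FN1, encoding fibronectin, the main adhesive glycoprotein of provisional matrix, ranged from 12.47 to 12.71 (median 12.59) in PEO1 and from 9.51 to 9.97 (median 9.72) in PEO4, a gap of -2.93. FBN1, the fibrillin of elastic microfibrils, was lower in PEO4 (a difference of -1.36). SPARC, a collagen-binding matricellular protein, differed by -0.53. Neither gene had overlapping arrays after joint normalization. Without the quantile step FBN1 differed by -0.88 and SPARC by -0.080, so the SPARC gap depends on the scaling. TNC, the de-adhesive tenascin, was higher by 1.43 from a dim level in PEO1, and FBLN1, a basement membrane fibulin, differed by -0.22. The collagen cross-linking enzymes also split: LOXL2 ranged from 9.40 to 9.86 (median 9.62) in PEO1 and from 6.64 to 7.12 (median 6.85) in PEO4, where it was dim, a gap of -2.72, LOX was higher in PEO4 by 1.46, and LOXL1 overlapped.

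ADAMTS1, a secreted protease that cuts the proteoglycans versican and aggrecan, had the largest difference towards PEO4 of the 39 genes. It ranged from 6.74 to 7.66 (median 7.35) in PEO1 and from 11.78 to 12.41 (median 12.08) in PEO4, a gap of 4.97, and it was dim in PEO1. MMP7 (matrilysin, an epithelial metalloproteinase) was lower in PEO4 (a difference of -1.84, with a dim level there), and its neighbour on chromosome 11, MMP10 (stromelysin-2), was higher by 1.37, though MMP10 was dim in both lines, ranging from 3.72 to 4.21 (median 3.94) in PEO1 and from 4.65 to 5.42 (median 5.10) in PEO4. MMP14, the membrane-bound activator of MMP2, was higher by 0.74. TIMP1, TIMP2 and TIMP3 were higher in PEO4 by 1.00, 1.32 and 1.48, each without overlap of the 28 and 28 arrays.

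The size of these gaps depended on the probe set. Of the 26 genes with several probe sets, 20 had all of them on the same side and 6 had them on both sides (COL1A1, COL1A2, COL4A6, COL6A1, COL11A1 and FBLN1). For COL1A1 the probe set used, the brightest, gave -0.30, while the others gave 2.31, 2.72 and 0.30. The second COL4A1 and COL4A2 probe sets gave -4.40 and -1.85. The 5 other FN1 probe sets ran from -3.20 to -0.46, those of LOXL2 gave -0.86 and -0.20, and the 4 of TIMP3 ran from 0.63 to 3.06.

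**Figure D2:**
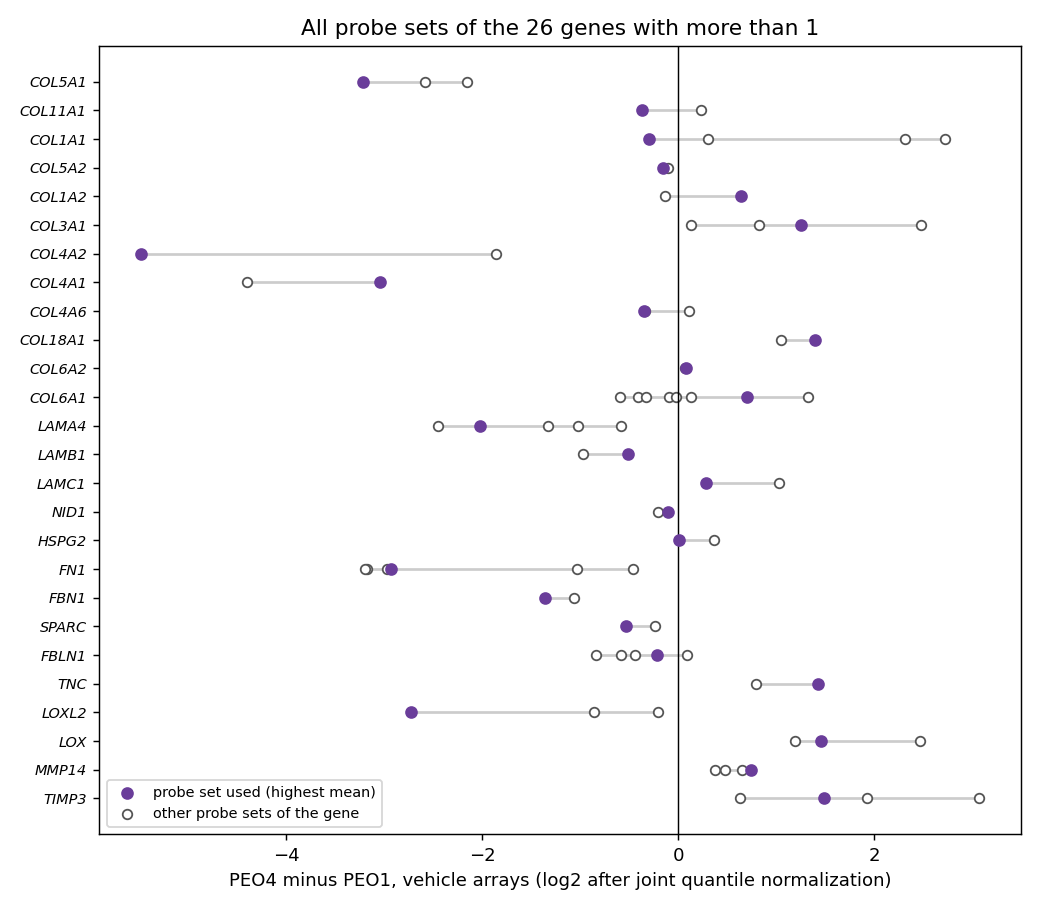
Each row is a gene with more than 1 probe set, and each point the PEO4 minus PEO1 difference of 1 probe set on vehicle arrays (log2, joint quantile normalization), filled for the probe set used and open for the others. COL4A1, COL4A2, COL5A1, FN1 and LAMA4 stay below 0 on every probe set, while those of COL1A1 run from -0.30 to 2.72.

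Against these differences, changes of matrix genes over 3 h, with vehicle or with an agent, were small in size. Within a line, groups were compared on the deposited values with limma over all 11963 genes, and a gene was called when its Benjamini-Hochberg adjusted p was under 0.05. Over 14 comparisons, 16 of the 39 genes were called at least once, with 31 calls in all, a higher share than the 28.6% of all genes called at least once. The largest change was 0.56 on the log2 scale, 1.47-fold, for ADAMTS1 in PEO1 between 0 h and vehicle. With an agent the largest was 0.50, for LAMB3 in PEO4 with 4OHT and E2 against E2. The median change of the 39 genes lay between 0.058 and -0.044 over the 14 comparisons, and that of all genes between -0.032 and 0.025. The comparisons of E2, ICI and 4OHT with vehicle share the vehicle arrays, and those of ICI with E2 and 4OHT with E2 against E2 alone share the E2 arrays, which E2 against vehicle uses too. All adjusted p-values below are from limma, SE is the standard error of the log2 change, and each group has n = 4. Overlap of arrays is described for called genes and is no evidence beyond the call. Of 15 markers of fibroblasts, smooth muscle, endothelium and leukocytes, a few were called in the same comparisons, and their part in the results was not tested. THY1 moved in PEO1 by 0.25 with E2, and against E2 by -0.24 with ICI and E2 and -0.25 with 4OHT and E2. In PEO4, ACTA2 moved by 0.24 and PECAM1 by -0.28 between 0 h and vehicle, PTPRC by 0.34 with 4OHT, and ACTA2 by -0.28 with 4OHT and E2 against E2. ESR1, the estrogen receptor gene, moved between 0 h and vehicle (by -0.22 in PEO1 and -0.28 in PEO4) and with 4OHT (-0.13 and -0.22).

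**Figure D3:**
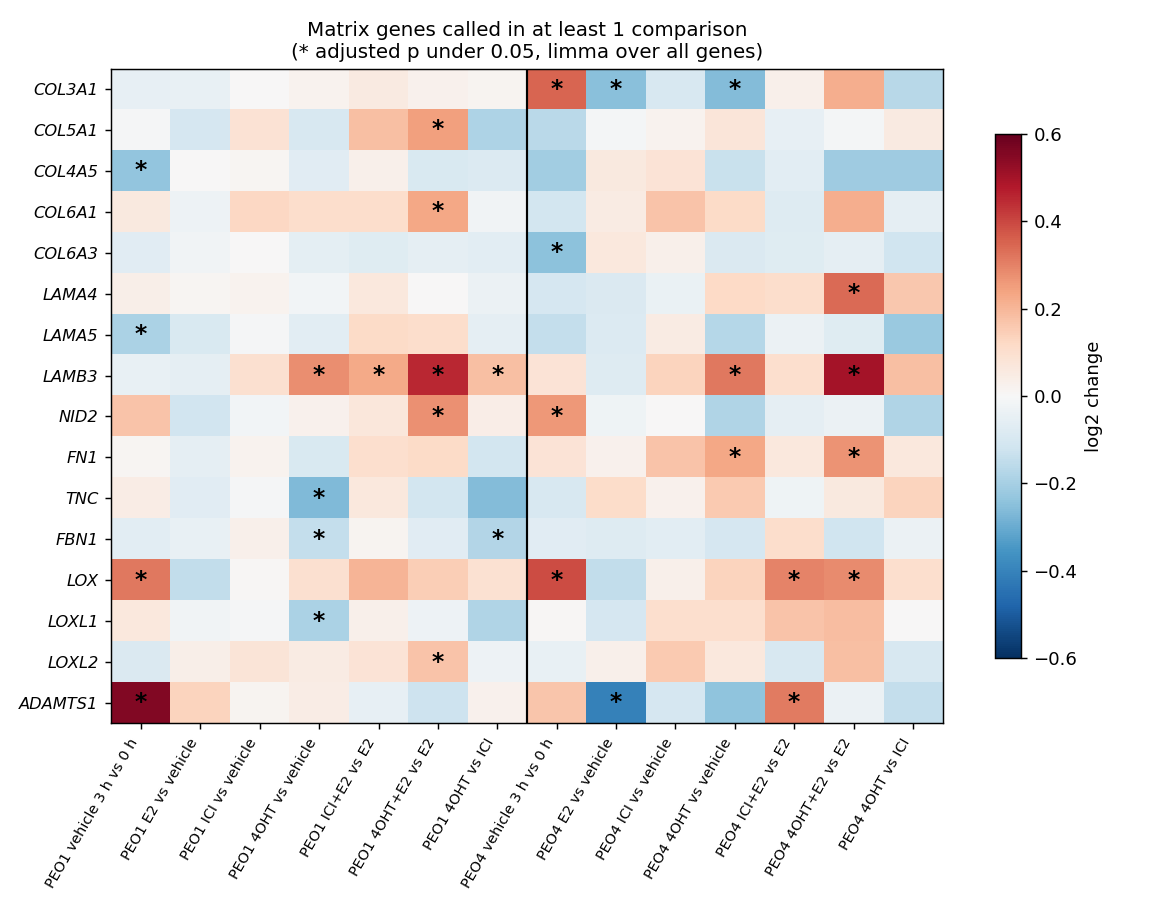
Colour gives the log2 change of the 16 matrix genes called at least once in 14 comparisons, PEO1 left and PEO4 right of the line, with an asterisk where limma's adjusted p was under 0.05. LAMB3 carries an asterisk with 4OHT in both lines, with and without E2, and no gene carries one with ICI alone.

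The vehicle and 0 h groups compare cells after 3 h with ethanol alone with cells at the start. In PEO1, 4 of 39 genes changed, against 7.43% of all genes, and their median change was -0.0012 against 0.020 for all genes. ADAMTS1 read 6.53, 6.51, 6.64 and 6.62 at 0 h and 7.10, 7.14, 7.16 and 7.13 with vehicle, so that every vehicle array lay above every 0 h array. It rose by 0.56 (SE 0.070, adjusted p = 1.03e-05). LOX, the founding lysyl oxidase, read 7.21, 7.18, 7.21 and 7.26 at 0 h and 7.46, 7.56, 7.66 and 7.44 with vehicle, again without overlap, and rose by 0.32 (adjusted p = 0.00493). COL4A5 fell from 8.68 ± 0.081 (SD) to 8.44 ± 0.060 (SD), and LAMA5 from 10.11 ± 0.081 (SD) to 9.92 ± 0.078 (SD). COL4A5 had an adjusted p of 0.00272 and LAMA5 one of 0.0359, and the LAMA5 call ended when any of 5 arrays was left out (vehicle B or C, 0 h A, B or C, adjusted p of 0.0626 to 0.144). With quantile normalization the calls over all genes went from 693 higher and 196 lower to 489 and 349.

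In PEO4, 4 of 39 genes changed between vehicle and 0 h, against 6.3% of all genes. LOX read 8.97, 9.06, 9.18 and 8.997 at 0 h and 9.46, 9.46, 9.44 and 9.43 with vehicle. It rose by 0.39 (SE 0.057, adjusted p = 3.64e-05), and LOX was the member called in both lines. The other LOX probe sets moved by 0.18 and 0.30 in PEO4, with adjusted p of 0.0837 and 0.315 over all probe sets, and with the mean of its probe sets the PEO1 call ended (adjusted p = 0.354). COL3A1 read 6.41, 6.51, 6.55 and 6.57 at 0 h and 6.87, 6.73, 6.96 and 6.88 with vehicle, and rose by 0.35 (adjusted p = 0.000956). NID2 rose from 6.46 ± 0.040 (SD) to 6.72 ± 0.12 (SD) and COL6A3 fell from 8.45 ± 0.10 (SD) to 8.20 ± 0.10 (SD), with adjusted p of 0.0219 and 0.0276. The NID2 call ended without any of 4 arrays (0 h 1 or 2, vehicle 1 or 4, up to 0.101), and the COL6A3 call without any of 5 (0 h 1 or 4, vehicle 1, 3 or 4, up to 0.118). Among them, 0 h replicate 4 has the high ACTB ratio, and without it and ICI replicate 1 together the adjusted p of COL6A3 was 0.064.

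E2 against vehicle asks which genes the hormone moved within 3 h. In PEO1 none of the 39 genes was called by limma, against 2.09% of all genes, and 4 had an unadjusted p under 0.05. Their changes ran from -0.22 (COL11A1) to 0.16 (COL18A1). COL18A1 was called without vehicle replicate A (adjusted p = 0.0433) and with the mean over its probe sets (adjusted p = 0.0375). In PEO4, 2 genes fell and none rose, against 2.12% of all genes called in either direction and 0.46% called lower. ADAMTS1 read 12.62, 12.39, 12.48 and 12.50 with vehicle and 12.20, 12.02, 12.12 and 12.03 with E2, so all E2 arrays lay below all vehicle arrays. It fell by 0.40 (SE 0.074, adjusted p = 0.00108). In PEO1 the same gene read 7.20, 7.20, 7.41 and 7.28 with E2 against the vehicle values above, a change of 0.14 (adjusted p = 0.482). The difference between the lines, -0.54 (SE 0.10, adjusted p = 0.00195), was called for ADAMTS1 and none of the other 38 genes, against 0.493% of all genes. ADAMTS1 had a single probe set and was dim in PEO1, where RMA values cannot say whether a transcript is present. COL3A1 read 6.60, 6.70, 6.58 and 6.55 with E2 in PEO4 and fell by 0.25 (adjusted p = 0.0405). That call ended without any of 6 arrays (vehicle 1, 3 or 4, E2 1, 3 or 4, adjusted p up to 0.19), or with the mean over its probe sets (0.215), and the count over the 39 genes was then 1. The ACTB 3′ minus 5′ signal was 0.24 to 0.57 on the PEO4 vehicle arrays and 0.68 to 1.02 on the E2 arrays, without overlap, and its part in these results was not tested.

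ICI alone changed none of the 39 genes by limma in either line, against 0.134% of all genes in PEO1 and 0.159% in PEO4, and 4 and 6 genes had an unadjusted p under 0.05. Changes ran from -0.15 (HSPG2) to 0.12 (COL6A1) in PEO1 and from -0.17 (COL1A1) to 0.21 (NID1) in PEO4. Without PEO4 ICI replicate 4, COL1A1 and LAMC1 were called (adjusted p = 0.0293 and 0.0498). When the ICI responses of both lines were set against each other, limma called 0 of 39 genes, against 0.1% of all genes, with 2 at an unadjusted p under 0.05.

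With 4OHT, LAMB3 was the member that rose in both lines, with and without E2. LAMB3 encodes the beta chain of laminin-332, which anchors epithelial cells to the basement membrane, and its partner LAMA3 was not analysed here. The array gave a single probe set for LAMB3, so no other could be read beside it. In PEO1 LAMB3 read 10.17, 10.22, 10.13 and 10.08 with vehicle and 10.50, 10.49, 10.27 and 10.45 with 4OHT. It read 10.10, 10.07, 10.13 and 10.10 with E2 and 10.51, 10.50, 10.53 and 10.65 with 4OHT and E2. The 4OHT arrays lay above their comparison arrays in both cases. In PEO4 it read 10.52, 10.57, 10.67 and 10.54 with vehicle and 10.95, 10.94, 10.83 and 10.86 with 4OHT. With E2 it read 10.47, 10.74, 10.44 and 10.36, and with 4OHT and E2 10.86, 11.01, 11.01 and 11.12, again with no overlap in either comparison. LAMB3 rose in PEO1 by 0.28 without E2 (SE 0.046, adjusted p = 0.000313) and by 0.45 with E2 (adjusted p = 9.39e-08). In PEO4 it rose by 0.32 (SE 0.078, adjusted p = 0.013) and by 0.50 (adjusted p = 5.99e-05). The comparisons with and without E2 share no array, and in all 4 the call held without each array in turn. The response to 4OHT differed between the lines by 0.039 (95% interval -0.14 to 0.22, adjusted p = 0.893).

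**Figure D4:**
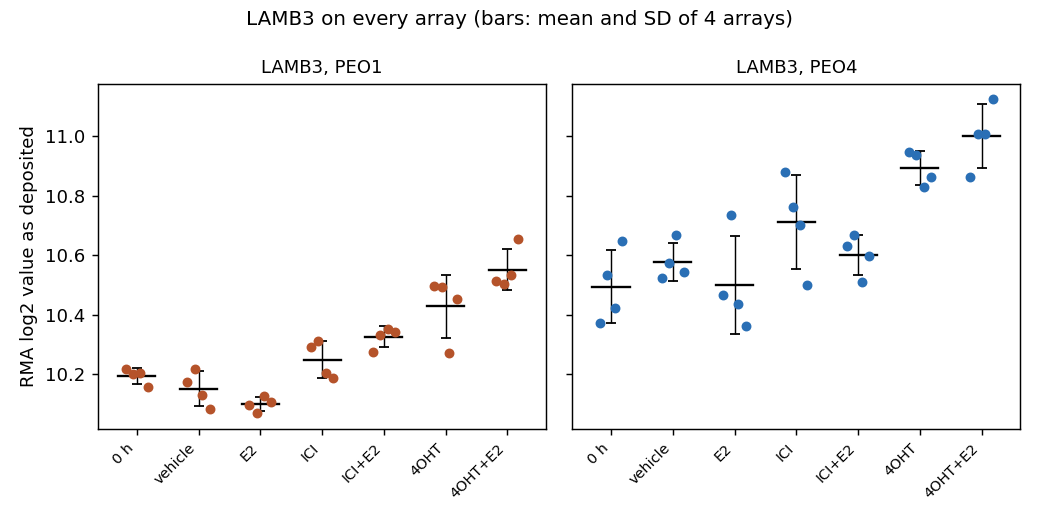
Points are the deposited log2 values of LAMB3 on each of 56 arrays by treatment group, PEO1 left and PEO4 right, with the mean and SD of 4 arrays. The 4OHT and 4OHT+E2 arrays lie above the vehicle and E2 arrays of their line.

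With E2 present, ICI also raised LAMB3 in PEO1, where it read 10.27, 10.33, 10.35 and 10.34, above all E2 arrays, a rise of 0.23 (adjusted p = 0.0032). In PEO4 ICI with E2 read 10.63, 10.67, 10.51 and 10.60, within the range of E2 alone, a change of 0.10 (95% interval -0.058 to 0.26, adjusted p = 0.675). Whether these responses to ICI differ between lines was not tested. Set against ICI at the same 1 µM dose and 3 h, 4OHT left LAMB3 higher by 0.18 in PEO1 (adjusted p = 0.0256), with overlapping arrays. In PEO4 the difference was 0.18 (95% interval 0.023 to 0.34, adjusted p = 0.239). The PEO1 call of 4OHT against ICI ended without any of 5 arrays (ICI C or D, 4OHT A, B or D, adjusted p of 0.0585 to 0.092).

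A promoter window of LAMB3 is shown beside those of MMP7 and MMP10. These were the matched members with a window, from 250 bases before to 50 after a RefSeq start, that held the AP-1 letters TGANTCA. The letters stand at bases -67 to -61 from that start in all 3 and are in capitals. For LAMB3 it is an internal start, within the annotated gene at chr1:209614870-209652425. The window at the outermost LAMB3 start lacked the letters. The lines give the stretch from 90 to 31 bases before the start in question, 5′ to 3′ on the strand of the gene (minus in all 3). They lie at chr1:209651405-209651464, chr11:102530778-102530837 and chr11:102780659-102780718 in GRCh38.p14.
LAMB3: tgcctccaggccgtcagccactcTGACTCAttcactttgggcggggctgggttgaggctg
MMP7: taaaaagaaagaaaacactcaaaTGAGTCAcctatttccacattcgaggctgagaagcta
MMP10: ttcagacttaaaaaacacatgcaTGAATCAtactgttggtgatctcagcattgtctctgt
On either strand TGANTCA occurred in 7.71% of all 35116 windows and in 3 of the 37 member windows, 1 of the 3 LAMB3 windows among them. The full palindromic estrogen response element, searched on both strands with any 3 bases as spacer, occurred in 0.057% of all windows and in 0 of 37 member windows, which says nothing of the receptor's binding elsewhere. A match is a description of letters, not a site or a cause. LAMB3 rose with 4OHT while MMP7 and MMP10 were called in none of the 14 comparisons: with 4OHT against vehicle MMP7 moved by -0.044 in PEO1 and 0.10 in PEO4, and MMP10 by 0.17 and -0.13.

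In PEO1, 4OHT against vehicle changed 4 of 39 genes, against 6.75% of all genes, LAMB3 upwards and TNC, FBN1 and LOXL1 downwards. The median of the 39 was -0.023 and that of all genes -0.032. FBN1 read 11.41, 11.38, 11.42 and 11.47 with vehicle and 11.35, 11.24, 11.26 and 11.26 with 4OHT, without overlap, and fell by 0.14 (SE 0.034, adjusted p = 0.0121). TNC read 7.30, 7.23, 7.10 and 6.95 with vehicle and 6.99, 6.85, 6.95 and 6.73 with 4OHT, with 1 vehicle array inside the 4OHT range, and fell by 0.26 (adjusted p = 0.0358), while its other, dim probe set moved by 0.26 and the mean of both gave an adjusted p of 0.993. LOXL1 fell from 9.07 ± 0.074 (SD) to 8.88 ± 0.10 (SD), also with overlap (adjusted p = 0.0436). The FBN1 call ended with the mean over probe sets (0.0648), while SPARC was then called, at -0.15 (adjusted p = 0.0358). The SPARC and LAMB1 probe sets not used each moved by -0.20 (limma over all probe sets, adjusted p = 0.025 and 0.013). With quantile normalization LAMB3 alone stayed called, with adjusted p of 0.0963 for FBN1, 0.0713 for TNC and 0.0975 for LOXL1, and the calls over all genes went from 230 higher and 578 lower to 295 and 273. Leaving out any of 5 arrays ended the TNC call (vehicle A, B or C, 4OHT B or D, up to 0.132) and any of 6 the LOXL1 call (vehicle A, B or C, 4OHT B, C or D, up to 0.172), and the count fell to 2 at the lowest.

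In PEO4, 4OHT against vehicle changed 3 of 39 genes, against 5.53% of all genes. FN1 read 9.96, 9.80, 9.89 and 9.97 with vehicle and 10.25, 10.08, 10.02 and 10.20 with 4OHT, above all vehicle arrays. It rose by 0.23 (SE 0.063, adjusted p = 0.0268). COL3A1 read 6.64, 6.45, 6.61 and 6.70 with 4OHT, below its vehicle arrays, and fell by 0.26 (adjusted p = 0.0183). The FN1 call ended without any of 4 arrays (vehicle 2 or 3, 4OHT 1 or 4, up to 0.12) and with the mean over its probe sets (0.0923), and the COL3A1 call without any of 3 (vehicle 3 or 4, 4OHT 2, up to 0.1), which brought the count to 1 at the lowest. Without 0 h replicate 4 and ICI replicate 1 together the count was 6. ADAMTS1 (a fall of 0.24, adjusted p = 0.00551), HSPG2 and COL1A1 were added, each of them lower with 4OHT. The share of all genes called without those arrays is not given here. With the mean over probe sets COL5A2 and ADAMTS1 were called, at -0.22 and -0.24 (limma adjusted p = 0.0128 and 0.0487).

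FN1 and TNC differed between the lines in their response to 4OHT, 2 of 39 genes against 1.26% of all genes. FN1 moved by -0.092 in PEO1 (12.30, 12.37, 12.45 and 12.45 with vehicle, 12.29, 12.27, 12.34 and 12.30 with 4OHT) and rose in PEO4, a difference of 0.32 (SE 0.075, adjusted p = 0.0152). Of the 5 other FN1 probe sets, 4 had a difference above 0, and those with bright signal gave 0.28 to 0.37. TNC in PEO4 read 8.91, 9.02, 9.03 and 9.10 with vehicle and 9.34, 9.12, 9.12 and 9.12 with 4OHT, a change of 0.16 (adjusted p = 0.144), and its difference between the lines was 0.42 (adjusted p = 0.0162). The other TNC probe set, near the lowest values on the array, gave a difference of -0.32 (adjusted p = 0.254). Leaving out vehicle replicate 2 of PEO4 ended the FN1 call (adjusted p = 0.0525), and leaving out PEO1 vehicle A or PEO4 4OHT 1 ended the TNC call (0.0541 and 0.0555). With quantile normalization the split over all genes went from 116 higher and 35 lower to 82 and 54.

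**Figure D5:**
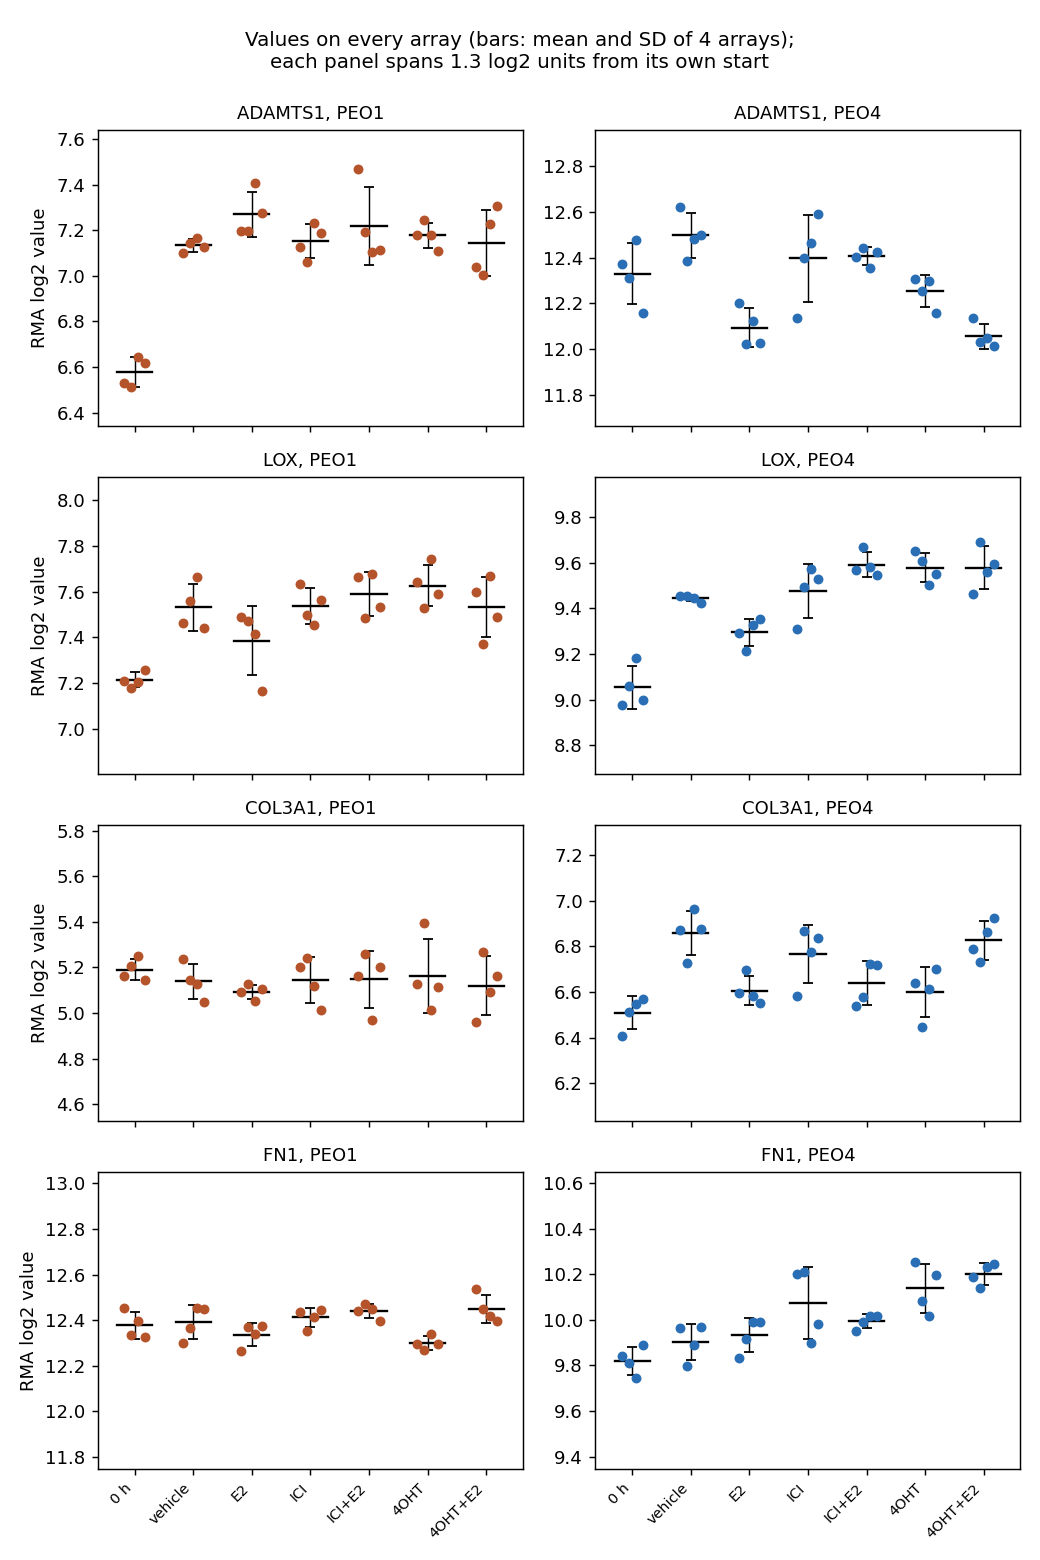
Points are the deposited log2 values of ADAMTS1, LOX, COL3A1 and FN1 on every array by treatment group, PEO1 left and PEO4 right, with the mean and SD of 4 arrays; the panels span the same number of log2 units from different starts. In PEO4 the E2 arrays of ADAMTS1 lie below its vehicle arrays and the 4OHT arrays of FN1 above them, and LOX is higher with vehicle than at 0 h in both lines.

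With E2 present, 4OHT raised 5 of 39 genes in PEO1 and lowered none, against 12.7% of all genes called in either direction and 4.26% called higher. Besides LAMB3, NID2 read 7.24, 7.48, 7.48 and 7.32 with E2 and 7.62, 7.61, 7.82 and 7.56 with 4OHT and E2, without overlap, and rose by 0.28 (adjusted p = 0.0126). COL6A1 read 7.40, 7.52, 7.44 and 7.48 with E2 and 7.63, 7.73, 7.63 and 7.77 with both agents, also without overlap, and rose by 0.23 (adjusted p = 0.00182). COL5A1 rose from 8.40 ± 0.083 (SD) to 8.64 ± 0.19 (SD) and LOXL2 from 9.29 ± 0.078 (SD) to 9.46 ± 0.079 (SD), with adjusted p of 0.0407 and 0.0432, and COL5A1 with overlapping arrays. The median of the 39 was 0.058 and that of all genes -0.014. The COL5A1 call ended without any of 4 arrays (E2 B or C, 4OHT+E2 A or D, up to 0.148), and LOXL2's without any of 5 (E2 C or D, 4OHT+E2 A, B or D, up to 0.138), with a count of 3 at the lowest. With the mean over probe sets the calls of COL5A1, COL6A1 and LOXL2 ended (adjusted p = 0.0776, 0.131 and 0.409). COL1A1 was then called, at 0.22 (adjusted p = 0.003). Its probe sets not used moved by 0.40, 0.34 and 0.089 (limma over all probe sets, adjusted p = 0.00195, 0.0185 and 0.484). The COL18A1 probe set not used moved by -0.17 (adjusted p = 0.033). With quantile normalization 8 members were called, COL4A2, LAMC1 and FN1 added, and the split over all genes went from 510 higher and 1015 lower to 670 and 559.

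In PEO4, 4OHT with E2 against E2 raised 4 of 39 genes and lowered none, against 5.73% of all genes called in either direction and 3.58% called higher. FN1 read 9.83, 9.92, 9.99 and 9.99 with E2 and 10.19, 10.14, 10.23 and 10.24 with 4OHT and E2, and rose by 0.27 (SE 0.063, adjusted p = 0.00737), as it did without E2 on other arrays. LAMA4 read 6.96, 6.96, 6.93 and 6.84 with E2 and 7.24, 7.29, 7.29 and 7.23 with both agents, and rose by 0.34 (adjusted p = 0.00467). LOX read 9.29, 9.21, 9.33 and 9.35 with E2 and 9.46, 9.69, 9.56 and 9.60 with 4OHT and E2, and rose by 0.28 (adjusted p = 0.00183). None of the 4 overlapped and each call held without each array in turn. How many of all genes did not overlap in this comparison is not given here. With the mean over a gene's probe sets the LAMA4 and LOX calls ended (adjusted p = 0.609 and 0.354). Without 0 h replicate 4 and ICI replicate 1 together, 9 members were called, of which COL1A1 and COL4A5 were lower and COL3A1, COL6A1 and LOXL2 higher in addition. The share of all genes called in that refit is not given here, so the count cannot be set against all genes.

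ICI with E2 against E2 changed 1 of 39 genes in PEO1 (LAMB3, above), against 2.5% of all genes, and raised 2 in PEO4, against 2.08% in either direction and 0.61% called higher. The mean of each stood lower with E2 than with vehicle in PEO4. ADAMTS1 read 12.40, 12.44, 12.36 and 12.43 with ICI and E2, above all E2 arrays, and rose by 0.31 (SE 0.074, adjusted p = 0.0169). With 4OHT and E2 it read 12.14, 12.03, 12.05 and 12.01, a change of -0.037 from E2 alone (95% interval -0.19 to 0.11, adjusted p = 0.881), and with 4OHT alone 12.31, 12.25, 12.30 and 12.16, 0.24 below vehicle (adjusted p = 0.0509). ICI with E2 and 4OHT with E2 were not tested against each other. LOX read 9.57, 9.67, 9.58 and 9.55 with ICI and E2 and rose by 0.30 (adjusted p = 0.00273), from an E2 level that stood 0.15 below vehicle (adjusted p = 0.3). With the mean over its probe sets the LOX call ended (adjusted p = 0.176). The ADAMTS1 call ended without E2 replicate 2, E2 replicate 4 or ICI+E2 replicate 2 (adjusted p = 0.0809, 0.0658 and 0.061), and without 0 h replicate 4 and ICI replicate 1 together the count was 4, with TIMP3 higher and FBLN1 lower in addition. For that refit, too, the share of all genes called is not given here.

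Between the antagonists alone at the same dose and time, 4OHT and ICI differed in 2 of 39 genes in PEO1, against 3.74% of all genes. FBN1 read 11.49, 11.43, 11.43 and 11.47 with ICI and was lower with 4OHT by 0.18 (adjusted p = 0.00306), and LAMB3 was higher, as above. Without 4OHT replicate A the count was 4, with COL4A2, TNC and LOXL1 lower and the LAMB3 call lost, and over all genes quantile normalization took the split from 202 higher and 246 lower to 227 and 177. In PEO4 limma called 0 of 39, against 2.33% of all genes, with 8 at an unadjusted p under 0.05 and changes from -0.22 (LAMA5) to 0.18 (LAMB3). LAMA5 was called without ICI replicate 4 (adjusted p = 0.0457).

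On the probe sets used, TIMP1, TIMP2 and TIMP3, and the 3 metalloproteinases MMP7, MMP10 and MMP14, were called in none of the 14 comparisons. By limma, 8 of these 84 tests had an unadjusted p under 0.05. The lowest adjusted p was that of TIMP3 in PEO1 with 4OHT against ICI, at 0.17 (95% interval 0.052 to 0.29, adjusted p = 0.0964). The next was that of TIMP2 in PEO1 with 4OHT against vehicle, at -0.14 (adjusted p = 0.144). Between 0 h and vehicle, a TIMP3 probe set not used moved by 0.18 in PEO1 and 0.40 in PEO4 (limma over all probe sets, adjusted p = 0.0449 and 0.000717). Another moved by 0.26 in PEO4 (adjusted p = 0.0373). The last moved by -0.25 in PEO4 with 4OHT against ICI (adjusted p = 0.0179). With the mean over its probe sets TIMP3 was called in PEO4 between 0 h and vehicle, at 0.24 (adjusted p = 0.00371).

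Genes that act on the matrix were read from 4 further lists. Of 15 matrix receptors measured, ITGA2, the collagen-binding integrin alpha-2 chain, and SDC4, a heparan sulfate co-receptor for fibronectin, rose with 4OHT in both lines, with and without E2. ITGA2 read 9.81, 9.76, 9.77 and 9.70 with vehicle and 9.96, 9.99, 9.94 and 10.02 with 4OHT in PEO1, and 8.50, 8.47, 8.35 and 8.55 and 9.14, 8.98, 8.69 and 8.97 in PEO4, with no overlap in either line. In PEO1, however, ITGA2 stood at 10.03 at 0 h and was lower with vehicle by 0.27 (limma adjusted p = 0.00151), so the 4OHT mean of 9.98 was near the 0 h level. In PEO4 the 0 h mean was 8.22 and the 4OHT mean 8.95. The 4OHT and 0 h groups were not tested against each other. Without E2, ITGA2 rose by 0.22 and 0.48 in PEO1 and PEO4 (adjusted p = 0.0126 and 0.00213), and SDC4 by 0.13 and 0.23 (adjusted p = 0.0444 and 0.00943). With 4OHT against vehicle, 2 of 15 rose in PEO1, against 1.92% of all genes, and 4 of 15 in PEO4, against 2.78%, where ITGB8 and the hyaluronan receptor CD44 joined them. With E2 present 3 rose in PEO1 (ITGB4 added), against 4.26% of all genes, and 4 in PEO4, against 3.58%.

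Of 15 collagen-processing genes, 3 fell with 4OHT in PEO1, against 4.83% of all genes: the collagen chaperone SERPINH1 by 0.16, the prolyl hydroxylase P3H1 by 0.21 and FKBP10 by 0.14 (adjusted p = 0.00977, 0.0127 and 0.0344). With E2 present 4 fell (FKBP10, CRTAP, P4HA2 and PLOD1, by 0.16 to 0.17), against 8.48% of all genes. SERPINH1 read 10.84, 10.83, 10.85 and 10.74 with vehicle and 10.75, 10.66, 10.58 and 10.62 with 4OHT, with 1 array of each group inside the other's range. Over all genes, the calls lower fell from 578 to 273 without E2 and from 1015 to 559 with E2 under quantile normalization. In PEO4, 1 of 15 fell with 4OHT (ADAMTS2, by 0.30, adjusted p = 0.0432), against 2.75% of all genes.

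Of 4 measured genes of the plasminogen system, which makes the protease plasmin, 1 rose and 2 fell with E2 in PEO1 and 1 rose in PEO4, against 2.09% and 2.12% of all genes in either direction. PLAT read 7.73, 7.56, 7.62 and 7.52 with vehicle and 8.37, 8.49, 8.33 and 8.32 with E2 in PEO1, and 11.27, 11.17, 11.27 and 11.25 and 11.81, 11.87, 11.71 and 11.80 in PEO4, far from overlapping. PLAT, the tissue plasminogen activator, rose with E2 by 0.77 in PEO1 and 0.55 in PEO4 (adjusted p = 2.85e-10 and 6.63e-09), and against E2 it fell with ICI and E2 by 0.82 and 0.42 and with 4OHT and E2 by 0.91 and 0.40. PLAUR, the urokinase receptor, rose with 4OHT by 0.31 in PEO1 and 0.42 in PEO4 (adjusted p = 0.000155 and 0.000306). PLAU, urokinase itself, fell with E2 in PEO1 by 0.31 (adjusted p = 0.000252). With 4OHT alone PLAT fell in PEO1 by 0.27 and rose in PEO4 by 0.17, a difference of 0.44 between the lines (adjusted p = 0.000146).

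Of 15 TGF-beta pathway genes, SMAD3, a transcription factor that carries the signal to matrix genes, rose with 4OHT in both lines, from 9.57, 9.55, 9.58 and 9.58 to 9.82, 9.85, 9.97 and 9.88 in PEO1 and from 9.49, 9.46, 9.54 and 9.40 to 9.74, 9.63, 9.70 and 9.62 in PEO4, without overlap. These were rises of 0.31 in PEO1 and 0.20 in PEO4 (adjusted p = 4.87e-05 and 0.0331). In PEO1, however, SMAD3 stood at 9.85 at 0 h and was lower with vehicle by 0.28 (limma adjusted p = 0.000156), so the 4OHT mean of 9.88 was near the 0 h level. In PEO4 the 0 h mean was 9.33 and the 4OHT mean 9.67. ICI with E2 also raised SMAD3 against E2 in PEO1, by 0.28 (limma adjusted p = 0.000155). TGFBR2, the type II receptor, fell by 0.15 in PEO1 and rose by 0.18 in PEO4, a difference of 0.34 (adjusted p = 0.000878). THBS1, a matricellular activator of latent TGF-beta, rose in PEO4 by 1.56 between 0 h and vehicle and by 0.67 with 4OHT (adjusted p = 9.59e-12 and 5.29e-05). CCN2, a matricellular TGF-beta target, fell with E2 in PEO4 by 0.49 (adjusted p = 0.00896), with the difference from PEO1 at -0.57 (adjusted p = 0.015). Its PEO4 mean was highest with vehicle (11.97) and lower in every other group, not with E2 alone. It was 11.48 with E2, 11.58 with ICI, 11.65 with 4OHT, 11.70 with ICI and E2, 11.45 with 4OHT and E2, and 11.20 at 0 h. In all, 1 rose and 1 fell in PEO1 and 3 rose and 1 fell in PEO4 with 4OHT against vehicle, against 6.75% and 5.53% of all genes in either direction.

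Levels of these lists also differed between the lines on vehicle arrays. CD44 stood at -3.33 (PEO4 minus PEO1), the protease inhibitor SERPINE2 at -3.34, TGFBI, a matrix protein bound by integrins, at -2.55 and THBS1 at -2.14, while PLAT stood at 3.18. Of the 15 matrix receptors 1 differed by at least 4-fold, against 2.39% of all genes, of the 15 collagen-processing genes 0, of the 4 plasminogen genes 2 and of the 15 TGF-beta genes 2.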

How the data were processed

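RNA of 56 samples was measured on Affymetrix 3′ expression arrays, and the authors deposited log2 values per probe set, made with RMA per the submitters' processing notes (its version is not given in the sources used here). RMA gives no detection calls. Array medians differed between the lines, so line levels were compared after joint quantile normalization and treatments within a line on the deposited values. Groups came from the labels. Of 22277 probe sets, 19064 carried 1 gene symbol, 1043 several and 2108 none (62 were controls), and the brightest probe set over all arrays stood for each of 11963 genes. Per line, all 28 arrays entered a limma fit (limma 3.58.1, R 4.3.3, 21 residual degrees of freedom) with Benjamini-Hochberg adjustment over all genes at 0.05. Line differences in response came from a fit over both lines. The number of arrays limits the precision.

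The members and gene lists were chosen with earlier results of these data known. Values in every array are given for members at least 4-fold apart between the lines or called in a treatment comparison, as ranges or means where they are many. Up to 4 called genes of each further list are named per comparison by their changes, and array values are given for 1 gene of each list, chosen after its values were seen. Same-numbered arrays did not deviate together in all 4 pairs of any comparison, so they were not treated as paired. The fit was tested on simulated data. Promoter windows were those of RefSeq, with 30 members matched. Alternatives tried were another variance model, filter, probe set rule, normalization, replicate block and sample set.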

Additional observations from a re-analysis of the deposited data

Results flagged for a closer look

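In 12 groups of 4 arrays 1 array lay far from the other 3 by Dixon's criterion, among 252 groups checked over 18 genes. Chance flags about 1 in 20 groups, or 12.6 here. On the deposited log2 scale, the low arrays were PEO1 E2 replicate C for COL4A5 (8.35, others 8.47 to 8.48), PEO4 4OHT replicate 4 for FBN1 (10.35, others 10.47 to 10.49), PEO1 4OHT replicate C for COL5A1 (8.23, others 8.44 to 8.47) and for LOXL2 (9.14, others 9.34 to 9.38), and PEO1 ICI+E2 replicate D for COL4A2 (9.42, others 9.49 to 9.50). For COL6A3 they were PEO1 ICI replicate D (6.02), PEO1 4OHT replicate A (6.01) and PEO4 4OHT replicate 3 (8.04). The high arrays were PEO4 E2 replicate 2 for TNC (9.16, others 9.11 to 9.12) and for NID2 (6.86, others 6.62 to 6.66), PEO4 4OHT replicate 1 for TNC (9.34, others 9.12 to 9.12), and PEO1 4OHT replicate A for FBN1 (11.35, others 11.24 to 11.26).

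The response to treatment differed between the lines, by limma's test of the difference, for 3 genes. ADAMTS1 differed by -0.54 (PEO4 minus PEO1) in its response to E2. FN1 and TNC differed by 0.32 and 0.42 in their response to 4OHT. ADAMTS1 and TNC were dim in PEO1.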

How the results depend on the processing

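No call changed direction under any alternative tried. With the replicate number as a block, all 34 calls were kept, PEO1 vehicle against 0 h had 4 members called as without it, and no count moved by over 1.5 times. Of the calls that could be tested again, 33 of 34 were kept with trend and robust variance, 27 of 27 without the dimmest 40 percent of genes, 22 of 34 with the mean over probe sets, 31 of 34 with joint quantile normalization, 17 of 18 without PEO4 0 h replicate 4 and ICI replicate 1, and 20 of 31 with the compared groups alone in the fit. For a gene with a single probe set, LAMB3 and ADAMTS1 among them, the mean over probe sets leaves its values as they were. That alternative was thus no check of the calls of such genes, and the 12 calls that ended were all of genes with several probe sets. The counts of members called moved as follows.

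With trend and robust variance, PEO1 4OHT against ICI had 4 and PEO4 E2 1. Without dim genes, PEO1 4OHT against ICI had 4, PEO4 E2 1, PEO4 vehicle against 0 h 2, and 4 members were at least 4-fold apart between the lines. With the mean over probe sets, PEO1 E2 had 1, PEO4 E2 1, PEO1 4OHT+E2 3, PEO4 ICI+E2 1, PEO4 4OHT+E2 2 and the line difference for 4OHT 1. With quantile normalization, PEO1 4OHT had 1 and PEO1 4OHT+E2 8. With the compared groups alone, PEO1 4OHT had 1, PEO1 4OHT+E2 2, PEO1 4OHT against ICI 0 and PEO4 E2 1. Without the 2 arrays, PEO4 4OHT had 6, ICI+E2 4, 4OHT+E2 9 and 4OHT against ICI 1. How many of all genes were called without them is not given here, so these counts cannot be set against all genes. With the compared groups alone, the calls that ended were, in PEO1, LAMA5 for vehicle (adjusted p 0.0733), TNC (0.123), FBN1 (0.125) and LOXL1 (0.137) for 4OHT, COL5A1 (0.149), NID2 (0.0677) and LOXL2 (0.136) for 4OHT+E2, and LAMB3 (0.193) and FBN1 (0.105) for 4OHT against ICI, and in PEO4 COL6A3 for vehicle (0.0592) and COL3A1 for E2 (0.0532), all by limma. The cause of these shifts was not tested.

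Leaving out 1 array at a time gave 3 to 4 members for PEO1 vehicle against 0 h, 0 to 1 for E2, 0 to 0 for ICI, 2 to 4 for 4OHT, 1 to 1 for ICI+E2, 3 to 5 for 4OHT+E2 and 1 to 4 for 4OHT against ICI. In PEO4 the ranges were 2 to 5, 1 to 2, 0 to 2, 1 to 3, 1 to 2, 4 to 6 and 0 to 1 in the same order. The line differences gave 1 to 1 for E2, 0 to 0 for ICI and 1 to 3 for 4OHT, and the line levels 6 to 7 members at least 4-fold apart.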
